A study of Rattus norvegicus with 6 samples.

Results

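The collagens described here are 10 rat genes: Col1a1, Col1a2, Col3a1, Col5a1 and Col5a2 of the fibrillar collagens, Col4a1, Col4a2 and Col18a1 of basement membranes, and Col6a1 and Col6a2 of the beaded-filament collagen VI. They were found by gene name in the deposited transcript assembly, where 10 of 24579 gene models carry these names, each at 1 locus and together with 49 of 60887 transcripts. The set was chosen from measured values of the comparison reported below, the difference in gene sums and transcript shares between knockdown and control libraries. The members' differences and shares are therefore given as a description. No p-value is given for a member, and counts of calls are printed beside those of all genes. The cells were primary rat beta cells, which secrete insulin in the pancreas, sorted by flow cytometry and cultured. In each of 3 batches, 1 library came from cells given a negative-control siRNA (Allstars) and 1 from cells given an siRNA to Nova1, an RNA-binding regulator of splicing, both at 30 nM for 16 h with Lipofectamine RNAiMAX and followed by 48 h of recovery. All 6 libraries share the sort, the lipid reagent and the culture, and come with no strain or age in the sources used here. Nothing states whether a batch is 1 animal or a pool. SDs measure the spread between batches. SEs come from a fit with batch as a block and reflect how the difference within a batch varies. In that fit each gene's variance is drawn towards that of all genes tested, so an SE is not the gene's own spread alone. Both spreads may be technical.

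Collagens are triple helices of 3 polypeptide chains. Fibrillar chains assemble into the tensile fibres of connective tissue, the chains of collagen IV form the sheet-like network of basement membranes, and collagen VI links cells to the matrix around them. In the pancreas, stellate cells and other fibroblasts are known as the main source of fibrillar collagen, and beta cells rest on a basement membrane that is largely laid down by islet endothelial cells.

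Assigned reads numbered from 95394043 to 292432076 per library, and the control was the deeper library in every batch. Nova1 RNA was lower in the knockdown of every batch, at 20.6, 21.5 and 17.4 CPM (reads scaled to library size, not to length) in the controls of batches 1, 2 and 3 and 7.76, 10.2 and 9.43 CPM in the knockdowns (log2 fold change -1.12, SE 0.11, adjusted p = 0.038 in limma). Per length, where each transcript counts by its own length, the drop was smaller in batches 2 and 3, from 5.06, 2.83 and 2.03 RPKM to 1.38, 2.38 and 1.81 RPKM. Its call was lost on log2(RPKM + 1) and log2(RPKM + 0.1) (adjusted p = 0.33 in limma for both), without the block on batch (1.00), without batch 1 (0.15) and without batch 2 (0.16). Insulin RNA was abundant, with Ins1 between 190653 and 312886 RPKM (reads scaled to library size and to transcript length) in controls. In these bulk samples, fewer cells of a type and less RNA per cell cannot be told apart.

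The genes of collagen IV stand head to head, and their start region is shown because both were called higher in the knockdown with similar values. In the Rnor_5.0 coordinates of the files, Col4a2 has its 5′ end at position 82987829 of chromosome 16 on the minus strand, and Col4a1 begins at 82987857 on the plus strand, with 27 bases between them. In the RefSeq promoter table (build GRCr8), which held 7 of the 10 genes, the annotated starts are 76 bases apart. The first line below is that whole stretch, chr16:84885521-84885596, read on the plus strand towards Col4a1. The second is the start of the 300-base RefSeq window of Col1a2, chr4:33518307-33518406 on the plus strand, shown because the transcripts of this gene differ in their first exon (below). Capitals mark matches on either strand to GGGCGG (a GC box), CCAAT or TATAAA.

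Col4a2-Col4a1 start region: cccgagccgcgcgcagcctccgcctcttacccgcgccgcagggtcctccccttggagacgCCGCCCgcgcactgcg

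Col1a2 upstream: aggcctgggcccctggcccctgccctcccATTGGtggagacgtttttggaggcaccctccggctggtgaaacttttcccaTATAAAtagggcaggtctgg

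Among all 33469 rat windows of 300 bases in that table, 33.1% held GGGCGG, 37.5% held CCAAT and 14.2% held TATAAA on either strand. GGGCGG occurred in 4 of the 7 members' windows (Col5a1, Col4a1, Col4a2 and Col18a1) and CCAAT in 3 (Col1a2, Col4a1 and Col4a2). TATAAA occurred in 1, that of Col1a2. The windows of Col4a1 and Col4a2 overlap, and every match in the Col4a2 window is also a match in that of Col4a1. The counts therefore include the same sites under both genes. These matches describe letters in a window and are not measured binding sites.

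By mean control RPKM, each of the 10 members ranked below the middle of the genes tested. Per length, the members averaged between 0.431 and 4.08 RPKM in control libraries, and Col1a1 ranked 8505th of 15983 genes tested. Col1a1 and Col1a2, whose chains form collagen I, led at 4.08 ± 1.64 and 3.78 ± 1.59 RPKM (SD, n = 3). Col4a1 followed at 1.03 ± 0.555 RPKM, Col18a1, the source of the fragment endostatin, at 0.999 ± 0.667, and Col3a1, which co-assembles with collagen I in extensible tissue, at 0.978 ± 0.312. Col5a2 (0.729 ± 0.386 RPKM), Col4a2 (0.601 ± 0.239), Col5a1 (0.578 ± 0.374), Col6a2 (0.469 ± 0.250) and Col6a1 (0.431 ± 0.0838) completed the order. Between neighbours in this order the control ranges overlapped in every pair except Col1a2 and Col4a1, so the only step larger than the spread separates the chains of collagen I from the other 8 genes.

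**Figure D1:**
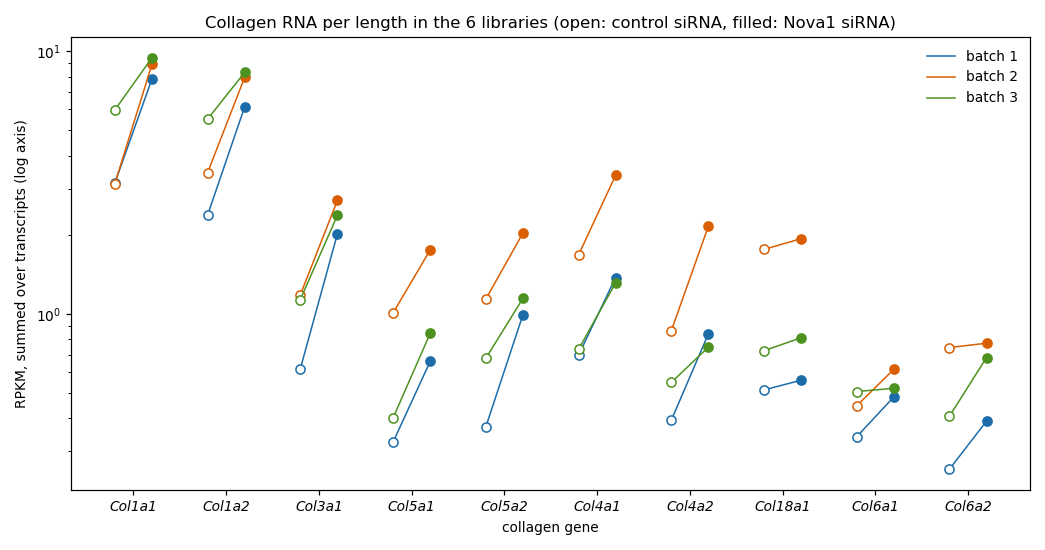
RPKM of each collagen gene on a log axis, with open circles for control and filled circles for knockdown libraries, joined within a batch. Col1a1 and Col1a2 lie above the other genes in the controls, and all 30 lines run upward.

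The knockdown comparison asks which RNAs differ between cells given the siRNA to Nova1 and those given the control siRNA. All 10 collagen genes had a higher value in the knockdown library of every batch, where 25.8% of all 15983 genes tested were higher in each of 3 batches. In limma 5 of 10 were called higher at an adjusted p below 0.05 (Col3a1, Col5a1, Col5a2, Col4a1 and Col4a2), where 0.513% of all genes were, and 0 were called lower, where 1.2% were. At an unadjusted p below 0.05 the members numbered 8, all of them higher, of 3816 genes in all. The members' median log2 fold change was 0.93 against 0.00 for all genes tested. The members were longer, with a median of 5159 bases against 2277 for all genes tested. With the length trend removed their median log2 fold change was 0.84, against 0.01 for all genes tested. Since the members were chosen with this comparison known, nothing is read from these shares.

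Col3a1 gave the largest log2 fold change of the 10 members. Its levels were 3.13, 5.51 and 5.95 CPM in the controls of batches 1, 2 and 3 and 10.1, 11.9 and 11.9 CPM in the knockdowns. Every knockdown library lay above every control, and the log2 fold change was 1.26 (SE 0.15).

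Col5a1 and Col5a2 encode the chains of collagen V, which nucleates collagen I fibrils and limits their width. Col5a1 was at 2.27, 6.52 and 3.33 CPM in controls and at 5.80, 13.6 and 6.58 CPM in knockdowns, a log2 fold change of 1.12 (SE 0.10). Batch 2 was the high one in both groups, so the groups overlapped although each batch moved up. Col5a2 was at 2.25, 5.42 and 3.84 CPM in controls and at 5.48, 10.7 and 6.86 CPM in knockdowns, with a log2 fold change of 1.02 (SE 0.11). Here the lowest knockdown library, of batch 1, lay just above the highest control, of batch 2. Col5a2 lies tail to tail with Col3a1 on chromosome 9 of Rnor_5.0, between 51757422 and 51906501 on the minus strand, with 32007 bases and no other gene model between them.

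Col1a1 and Col1a2 had differences of the same size but were not called. Col1a1 measured 19.5, 17.9 and 38.3 CPM in controls and 48.2, 48.1 and 58.0 CPM in knockdowns (log2 fold change 1.08, SE 0.17). Col1a2 measured 12.7, 17.1 and 30.7 CPM in controls and 32.3, 36.8 and 44.1 CPM in knockdowns (0.97, SE 0.16). In both genes the groups did not overlap, and the control of batch 3 stood above the other controls. The difference in batch 3 was the smallest, at 0.60 for Col1a1 and 0.52 for Col1a2, against 1.31 and 1.35 in batch 1 and 1.43 and 1.10 in batch 2. In CPM the knockdown group lay wholly above the control group for 4 of 10 members (Col1a1, Col1a2, Col3a1 and Col5a2), against 3.96% of all genes tested.

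The basement membrane genes split. Col4a1 was at 4.87, 10.8 and 5.31 CPM in controls and at 9.54, 20.6 and 9.12 CPM in knockdowns, and Col4a2 at 2.35, 4.85 and 3.06 against 5.29, 9.02 and 4.60 CPM. Batch 2 was again high in both groups. The log2 fold changes were 0.90 (SE 0.07) and 0.89 (SE 0.13). Col18a1, by contrast, was at 2.75, 8.81 and 4.07 CPM in controls and at 2.95, 9.13 and 4.31 CPM in knockdowns. Its batches differed far more than its groups, and its log2 fold change was 0.07 (SE 0.08). The difference between Col18a1 and the collagen IV genes was not tested.

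The collagen VI genes had the lowest levels of the members. Col6a1 ranged from 1.11 to 2.14 CPM in controls and from 2.04 to 2.21 in knockdowns, and Col6a2 from 0.811 to 2.15 and from 1.36 to 2.30 CPM. The log2 fold changes were 0.39 (SE 0.19) and 0.49 (SE 0.17), with within-batch differences from 0.03 to 0.88 for Col6a1 and from 0.10 to 0.75 for Col6a2. Each rested on between 170 and 402 estimated reads per library, fewer than any other member had in the same library. Col18a1, Col6a1 and Col6a2 all lie on chromosome 20.

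**Figure D2:**
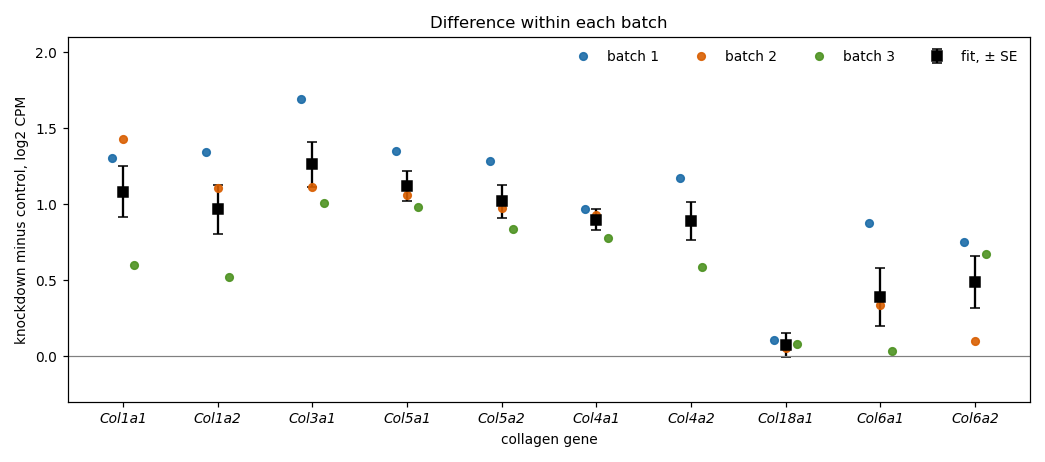
Knockdown minus control in log2 CPM for each gene, with circles for the 3 batches and a square with its standard error for the limma fit. Col1a1, Col1a2, Col3a1, Col5a1, Col5a2, Col4a1 and Col4a2 lie near 1, Col6a1 and Col6a2 lie lower, and Col18a1 lies near 0.

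The batches shared an order across most members. Batch 1 gave the largest difference in 9 of 10 genes and batch 3 the smallest in 8, and the control of batch 1 was the lowest control in 9. The median difference over the members was 1.23, 0.95 and 0.64 in batches 1, 2 and 3, against 0.02, -0.01 and 0.00 over all genes. Reads from all members together made up 51.7, 80.8 and 98.1 CPM in the controls and 123.1, 164.3 and 149.9 CPM in the knockdowns. The knockdown libraries thus differed less among themselves than the controls did in proportion to their level.

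The calls depend on the batch term and on the batches kept. Without the block on batch, and with limma on log2 RPKM values, 0 members were called; without batch 1 or batch 2 there were 0, and without batch 3 there were 7, Col1a1 and Col1a2 among them. The listed genes named below as risen or fallen were likewise called in none of the fits without the block, on log2 RPKM, without batch 1 or without batch 2. Without batch 3, Fbln2 and Lyz2 were still called and Col11a1, Lamc1, Fras1, Tgfb2, Ltbp2, C1qa and Ctrb1 were not. With scaling by library totals alone 4 members were called, and the split over all genes was 47 higher and 44 lower against 82 and 192.

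Ratios between the chains of one collagen type differed between groups by less than their spread. The RPKM ratio of Col1a1 to Col1a2, whose chains combine with an excess of the first in collagen I, was 1.11 ± 0.208 in controls and 1.18 ± 0.0860 in knockdowns (SD, n = 3). The ratio of Col4a1 to Col4a2 was 1.68 ± 0.312 and 1.65 ± 0.0973, and that of Col5a1 to Col5a2 was 0.785 ± 0.166 in controls and 0.665, 0.863 and 0.735 in the knockdowns of batches 1, 2 and 3. For Col6a1 to Col6a2 it was 1.06 ± 0.398 and 0.931 ± 0.264. The Col6 ratio varied most, from 0.600 in the batch 2 control to 1.33 in the batch 1 control. Col3a1 stood at 0.254 ± 0.106 of Col1a1 in controls and at 0.271 ± 0.0286 in knockdowns.

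**Figure D3:**
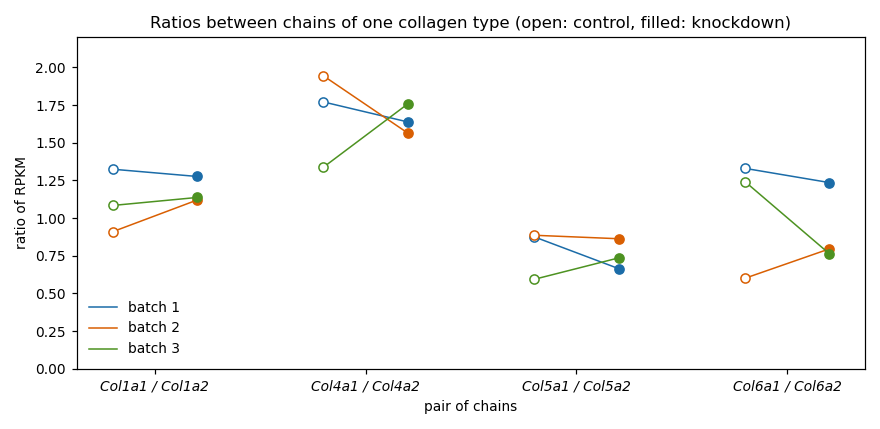
Ratio of RPKM between paired chains on a linear axis, with open circles for control and filled circles for knockdown libraries, joined within a batch. Lines run in both directions for every pair.

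The use of transcripts within a gene was among the values that chose the members, so the shares below are described and nothing is read from the calls. Col1a1 and Col4a1 have 1 transcript each in the assembly, while Col5a1 has 16 and Col4a2 has 11. Of the 49 transcripts, 37 are newly assembled splice combinations (class code j), 13 were listed at 0 in all 6 libraries and 11 were above 0 in all. In limma diffSplice over all transcripts, 8 member genes and 21 of their transcripts entered. None of the 21 transcripts was called, where 0.302% of all 31429 transcripts were. An unadjusted p below 0.05 was found for 5 of the 21 and for 2832 of the 31429. By the Simes test per gene 1 of the 8 genes was called, Col3a1, where 0.702% of all 9538 genes were, and without batch 2 it was not. In 5 transcripts of 3 genes (Col1a2, Col3a1 and Col18a1) the shares of the groups did not overlap. This was not counted over all transcripts, so nothing is read from it.

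Col3a1 has 2 transcripts, which differ in the end of the first exon. On chromosome 9 of Rnor_5.0, plus strand, the first exon runs from 51689492 to 51689680 in the transcript that matches the reference (189 bases) and to 51689676 in the other (185 bases), a difference of 4 bases at the exon's end. The shorter form held 52.5%, 50.4% and 28.8% of the gene's RPKM in the controls of batches 1, 2 and 3 and was listed at 0 in all 3 knockdown libraries, where the reference form held 100%. Its estimated reads were 453.6, 361.7 and 321.4 in the controls, so the groups did not overlap. A value of 0 can be a failed estimate where forms share nearly all their sequence. Among all 31429 transcripts tested, 36 were listed at 0 in every knockdown library with at least 300 reads in every control, and 21 showed the opposite pattern. That minimum lies just under the lowest control of this Col3a1 form. With no read minimum, 173 were at 0 in every knockdown and above 0 in every control, and 100 showed the opposite pattern. The assembly gives no reading frame, so the effect of 4 bases on the protein was not examined.

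A Col18a1 transcript, 1 of 6 of that gene, held 9.17%, 36.9% and 56.7% of RPKM in controls and was likewise listed at 0 in all 3 knockdown libraries. Its estimated reads were 70.4, 421.8 and 433.4 in the controls, so it falls under the count of 173 with no read minimum. In Col1a2 the transcript that begins in a downstream first exon, between 31408944 and 31408984 of chromosome 4 (Rnor_5.0, plus strand), held 33.6%, 20.5% and 22.4% of RPKM in controls and 56.4%, 59.2% and 37.8% in knockdowns. That transcript has 49 exons. The transcript that begins at 31405128, with 52 exons, held the rest, and the reference-matched form was listed at 0 in all libraries. The groups did not overlap, with the knockdown of batch 3 nearest to the controls. In Col5a1, Col5a2, Col4a2 and Col18a1 the leading transcript differed between libraries within both groups. In Col1a2, Col6a1 and Col6a2 it differed between libraries within the knockdown group. Col5a2 illustrates this, with 1 transcript at 93.9%, 14.6% and 38.1% in the controls and at 33.3%, 97.2% and 97.3% in the knockdowns. A Col5a1 transcript held 20.7%, 1.04% and 0% in the controls and 93.4%, 99.6% and 19.5% in the knockdowns, and there the groups overlapped.

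**Figure D4:**
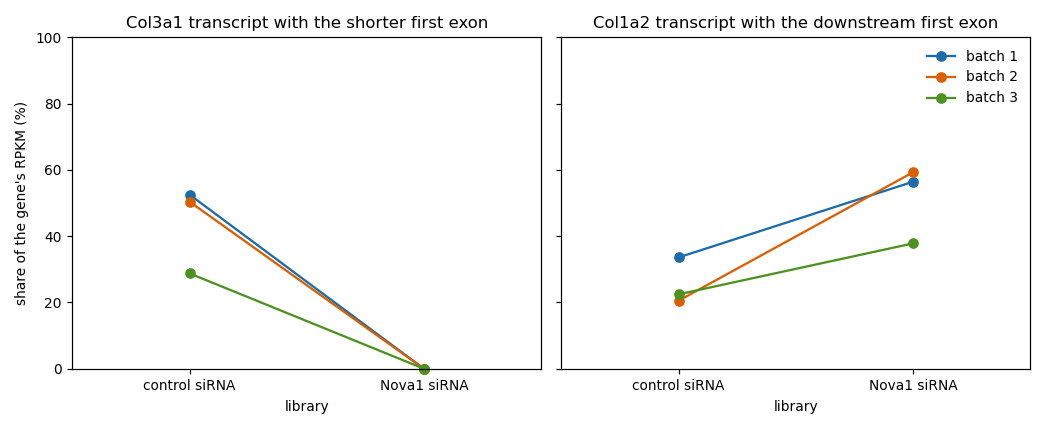
Share of the gene's RPKM, in percent, held by the Col3a1 transcript with the shorter first exon and by the Col1a2 transcript with the downstream first exon, joined within each of the 3 batches. The Col3a1 form is between 28.8% and 52.5% in controls and listed at 0 in knockdowns, and the Col1a2 form is higher in each knockdown library.

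The gene lists from here on were chosen with earlier results of these data known, so their values and calls are a description. The other collagens were mostly higher as well, at levels that varied widely. Those in the assembly summed to 22.6 to 113.0 RPKM in the controls, and the 10 members to 9.04 to 16.6. Of the other collagens, 14 averaged below 0.1 RPKM over the libraries. Of 34 further collagen genes 32 were in the assembly and 24 were tested, and 21 of these had a positive log2 fold change, with a median of 0.34. Col11a1, a fibrillar chain related to collagen V, rose, from 0.0515 ± 0.0147 to 0.209 ± 0.0976 RPKM (log2 fold change 1.91, SE 0.19, adjusted p = 0.038 in limma), and 0 fell. Col6a6 and Col16a1, the most abundant of the list, stood at 16.2 ± 10.8 and 14.9 ± 10.8 RPKM in controls, above every member. They had log2 fold changes of 0.34 and 0.20, and limma called neither (adjusted p = 0.079 and 0.37). Col6a3, the third chain of collagen VI, chosen after its values were seen, was at 0.0761 RPKM in controls and 0.171 in knockdowns and did not pass (adjusted p = 0.11 in limma).

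Basement membrane partners of collagen IV had a median log2 fold change of 0.39, with 15 of 20 positive. Lamc1, the gamma chain of most laminins, rose from 4.48 ± 0.689 to 6.36 ± 0.551 RPKM (log2 fold change 0.48, SE 0.06, adjusted p = 0.046 in limma). Fras1, a matrix protein of epithelial basement membranes, rose from 0.844 ± 0.154 to 1.56 ± 0.174 RPKM (0.78, SE 0.10, adjusted p = 0.045 in limma). Lamc1 and Fras1 were not called with the stricter filter on low values (adjusted p = 0.0504 for both in limma) or with halved reads (0.0507 for both). With no filter, Lamc1 was also not called (adjusted p = 0.0502 in limma). Sparc, which binds collagen, was at 4.30 ± 1.91 and 7.71 ± 0.972 RPKM and did not pass (0.85, adjusted p = 0.091 in limma). None of the 20 fell.

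No gene listed for making or exporting collagen was called with all batches and no length correction. Of 28 tested genes for collagen modification and crosslinking 0 were called in limma (9 at an unadjusted p below 0.05), with a median of 0.08, and without batch 3 there were 2. P4hb, a subunit of prolyl 4-hydroxylase that is also a disulfide isomerase, was at 504.3 ± 22.6 RPKM in controls and 468.8 ± 13.0 in knockdowns, and Ppib, a prolyl isomerase of the endoplasmic reticulum, at 150.6 ± 19.4 and 145.8 ± 7.35. Of 16 export genes 0 were called in limma (2 at an unadjusted p below 0.05), with a median of -0.03. Sec24d and Sec23b, coat proteins of the vesicles that leave the endoplasmic reticulum, were at 141.5 ± 11.7 and 96.1 ± 9.71 RPKM in controls and at 156.7 ± 17.2 and 93.7 ± 14.1 in knockdowns. Collagen receptors (16 tested, median -0.09, 4 at an unadjusted p below 0.05) and degradation genes (17, median 0.10, 4) likewise had 0 called in limma. Itgb1, the beta-1 integrin subunit, was at 139.1 ± 2.52 and 135.2 ± 12.3 RPKM, and Gpr56, an adhesion receptor that binds collagen III, at 47.1 ± 3.37 and 44.2 ± 2.07. Ctsb, a lysosomal protease, was at 445.8 ± 119.7 and 447.6 ± 107.5 RPKM, and Timp1, an inhibitor of matrix proteases, at 28.3 ± 10.6 and 24.2 ± 7.31.

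In the TGF-beta pathway, a known inducer of collagen genes, 15 of 20 tested genes were positive with a median of 0.26, 3 rose and 0 fell. Tgfb2, a ligand, rose from 9.12 ± 1.46 to 13.5 ± 0.868 RPKM (log2 fold change 0.41, SE 0.05, adjusted p = 0.042 in limma). Ltbp2, a matrix protein of the latent TGF-beta binding family, rose from 0.143 ± 0.0399 to 0.390 ± 0.0853 RPKM (1.40, SE 0.13, adjusted p = 0.036 in limma). The receptor Tgfbr1 was at 29.0 ± 6.51 and 25.3 ± 3.33 RPKM and Smad4 at 16.3 ± 0.849 and 16.1 ± 1.99, and neither passed.

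Markers of cells known to make collagen were measured beside the members. For fibroblasts and stellate cells, 25 of 26 markers other than collagens were in the assembly and their summed level was 88.8 to 128.0 RPKM in controls and 92.2 to 137.6 in knockdowns. Fn1, fibronectin, was the most abundant of them at 70.8 ± 34.2 and 68.4 ± 35.3 RPKM. Tagln, a contractile-cell protein, was at 10.6 ± 7.69 and 12.9 ± 4.58, and 7 of the 25 averaged below 0.1 RPKM. Of 21 tested, 15 had a positive log2 fold change. The values ran from -0.79 for the receptor Pdgfra (0.0545 and 0.0349 RPKM, adjusted p = 0.20 in limma) to 1.65 for Fbln2. Postn, periostin, was at 1.55 (adjusted p = 0.058 in limma), and Dcn, decorin, at 0.29 (0.59). Pdgfra, Postn and Dcn were chosen for naming after their values were seen. Fbln2, a fibulin of the matrix, rose from 0.208 ± 0.0533 to 0.655 ± 0.208 RPKM (log2 fold change 1.65, SE 0.15, adjusted p = 0.036 in limma) and 0 fell. Over the list the median was 0.29. By batch it was 0.65, 0.30 and -0.01, beside 1.23, 0.95 and 0.64 for the members. The part of these cells in the collagen values was not tested.

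Endothelial markers summed to 4.39 to 5.03 RPKM in controls and 3.83 to 6.06 in knockdowns. Of 16 markers 11 averaged below 0.1 RPKM and 1 was listed at 0 in all libraries, and 0 of 9 tested were called in limma (0 at an unadjusted p below 0.05), with a median of 0.01. Plvap and Esam led that list at 1.63 ± 0.566 and 1.32 ± 0.431 RPKM in controls. Schwann cell markers, led by Mbp and Ngfr, summed to 2.29 RPKM at most, with 0 of 5 called in limma (0 at an unadjusted p below 0.05). Macrophage and immune markers summed to 14.9 to 18.2 RPKM in controls and 14.3 to 27.8 in knockdowns, with a median of 0.62 over 15 tested genes. Of these 15, 13 had a positive log2 fold change and 8 had an unadjusted p below 0.05 in limma. By batch their median was 0.60, 0.66 and 0.53 in batches 1, 2 and 3. In that list Lyz2 rose by 1.43 on the log2 scale and C1qa fell by 0.47 (not called with library totals, no filter, the stricter filter or halved reads). Acinar markers had a median of -0.41 over 14 tested genes. Of these 14, 1 had a positive log2 fold change and 10 had an unadjusted p below 0.05 in limma. Ctrb1 fell by 0.40 (not called with library totals, the stricter filter, halved reads or the length correction) and Prss1, at -0.51, did not pass (adjusted p = 0.055 in limma). Duct cell, other islet endocrine and beta cell markers had medians of 0.24, 0.15 and -0.04, with 0 called in limma (1, 2 and 0 at an unadjusted p below 0.05). Krt7 and Krt19 led the duct list and Gcg and Ppy the other endocrine list. How far a change in the mix of cells enters the collagen values was not tested.

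**Figure D5:**
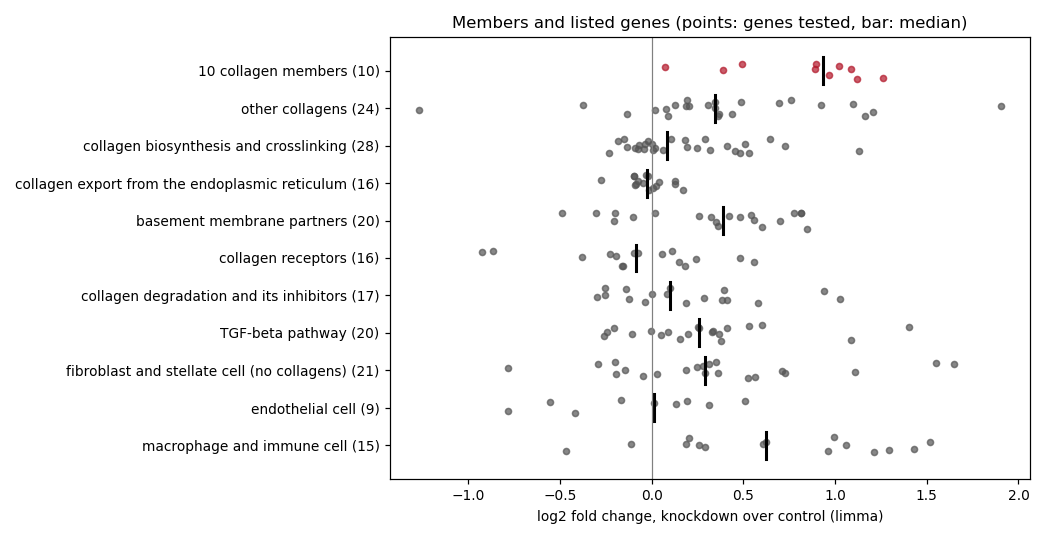
Log2 fold change of knockdown over control, with a point for each tested gene and a bar at the median of each row. Rows are the 10 collagens, each pathway list, and the fibroblast, endothelial and macrophage markers. Schwann, acinar, duct, other endocrine and beta cell markers are not shown. The members' median is 0.93, that of other collagens 0.34 and that of basement membrane partners 0.39, while collagen export and endothelial rows lie around 0.

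The RNAs most like the collagens across the 6 libraries were found by Pearson correlation of log2 CPM with the mean standardised profile of the members, among 10379 named genes of at least 1 RPKM in a group. They were Fgfr1 (r = 0.992), Zfp560 (0.991), Slc30a5 (0.976), Arhgap6 (0.975) and Ccnc (0.970). The correlations come from 6 points that share batches and groups, and they are given as a description. Per length, 2 of the genes ran opposite to the members in batch 1. Zfp560 was at 4.36 RPKM in that control and 2.54 in that knockdown, and Arhgap6 at 0.864 and 0.841. None of the 5 was called in the knockdown comparison, with log2 fold changes from 0.15 to 0.33.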

How the data were processed

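Reads were aligned with TopHat to Rnor_5.0, per the submitters' processing notes. For each library the authors deposited estimated reads, length and RPKM per transcript as attribute text; no source used here names the quantifier or says whether it used strand. No other score or unit in the deposited files was used. Poly(A) libraries came from RNA of integrity 7.5 or more with 200 bp products excised, per the labels' protocols.

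Reads were summed per gene name and locus. Of gene sums above 0.5, 92.8% were whole within 0.01 and 99.9% of these were even, as were all 60 member values, so a read pair may count as 2 reads. Genes needed the equivalent of 10 reads at median depth in 3 libraries and 15 in all; all 10 members passed, among 15983 genes. Voom in limma 3.58.1 (R 4.3.3), with scaling by trimmed mean of M values (30% and 5%), was fitted with batch as a block (2 residual degrees of freedom), after tests on simulated data. P-values were adjusted by Benjamini-Hochberg over all genes, threshold 0.05. Transcript shares were fitted with diffSplice over all transcripts. The labels pair libraries by batch; deviations from group means correlated at 0.38, 0.72 and 0.55 in batches 1, 2 and 3. Estimated reads held as text were not given to a count model.

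Alternatives were median of ratios or total scaling, no block, each batch left out, no or a 5 times stricter filter, limma-trend on log2(RPKM + 1) or + 0.1, removal of a length trend, diffSplice on log2(RPKM + 0.1) or on transcripts of at least 10% of the gene, reference-matched transcripts only, and, added after seeing the data, halved reads. Members and lists were chosen with earlier results of these data known. Named genes are the members, Nova1, called list genes (up to 4 each way), the 2 most abundant tested genes of the lists, and 5 genes of similar pattern; Col6a3, Pdgfra, Postn and Dcn were named outside this rule, after their values were seen; a symbol at several loci was read at the deepest. Of these, 1 called list gene is not reported here. The 3 members Col1a1, Col3a1 and Col6a2 have no entry in the promoter table.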

Additional observations from a re-analysis of the deposited data

How the results depend on the processing

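All 10 members kept a positive log2 fold change in every alternative except Col18a1, which was at -0.013 (not called) with the length trend removed. Of 120 member values under alternatives, 28 were no longer called and 2 became called, with 89 on the same side.

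Where 5 members were called higher, 0 were without the replicate block (6 at an unadjusted p below 0.05) and with limma-trend on log2(RPKM + 1) or log2(RPKM + 0.1) (7 and 7), and 0 to 7 when a batch was left out. Over all genes, 82 higher and 192 lower became 0 and 0 without the block (521 at an unadjusted p below 0.05) and with limma-trend (3193 and 3111), and 0 to 30 higher and 0 to 45 lower with a batch left out. They were 47 and 44 with library totals, 47 and 127 with no filter, 33 and 86 with the strict filter, 166 and 428 with the replicate block and length correction, and 34 and 88 with halved reads. The call of Col4a2 was lost with library totals, the strict filter and halved reads. Over the lists of other genes, 0 were called without the block, without batch 1, without batch 2 and with limma-trend. Basement membrane partners went from 2 to 0 with the strict filter and with halved reads and to 1 with no filter, other collagens from 1 to 0 without batch 3, and acinar markers from 1 to 0 without batch 3 and with library totals, the strict filter and halved reads. Biosynthesis genes went from 0 to 2 without batch 3, and biosynthesis, export, duct and other endocrine genes from 0 to 1 each with the length correction. The cause of these shifts was not tested.

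In the share test, 0 collagen transcripts became 2 without the replicate block, 2 on log2(RPKM + 0.1) and 0 to 7 with a batch left out, and the 1 gene called by Simes became 0 to 4. Over all genes, 95 transcripts became 428 to 509 with a batch left out and 165 on log2(RPKM + 0.1). Restricted to reference-matched transcripts, 14 of 20 group levels moved by over 1 SD, since these forms are often listed at 0, and the ratios of Col1a1 to Col1a2 and of Col4a1 to Col4a2 could not be formed. That of Col3a1 to Col1a1 became 0.139 ± 0.0470 in controls and 0.271 ± 0.0286 in knockdowns, with no overlap. The ratio of Col6a1 to Col6a2 became 1.01 ± 1.61 and 0.387 ± 0.409, and that of Col5a1 to Col5a2 could be formed in 3 libraries. The collagen VI genes rested on 170 to 402 reads per library, which bounds their precision.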
